A study of Mus musculus with 8 samples.

Results

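The DNA replication and G1/S genes are a set of 52 mouse genes that load and start the replication fork, copy the DNA, supply its nucleotides and carry cells into S phase. The members were a fixed list of gene symbols, matched exactly to the symbols of the array's probe annotation. Of these, 51 were matched to a probe and Pcna was not analysed here, out of 19084 genes with a symbol. The 51 genes had 57 of the 26423 probes, and Exo1, Gins1, Orc2, Gins3, Ccne2 and Rrm1 had several. A gene was represented by its probe with the highest mean intensity. The mean normalized intensity reached 50 for 48 of the 51 members, and Cdc6 lay under 50 on all 8 arrays.

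Before a cell copies its DNA, the origin recognition complex, Cdc6 and Cdt1 load the MCM helicase ring onto origins, and geminin blocks a second loading by binding Cdt1. Cdc45 and the GINS complex then turn the ring into an active helicase, and polymerases, their clamp and the clamp loader follow. Entry into S phase is driven by cyclin E with its kinase and by the E2F transcription factors, whose targets include most genes of this machinery. RAW264.7 is an established mouse macrophage-like line that divides in culture, so its cells normally express these genes.

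The study asked what Dab2, an endocytic adaptor protein, does in macrophages that meet lipopolysaccharide (LPS), a cell-wall component of Gram-negative bacteria that is sensed by Toll-like receptor 4. Total RNA was hybridized to one-colour Phalanx OneArray mouse chips in 4 groups of 2 arrays each, all of RAW264.7 cells. These were shDab2 cells with LPS, shDab2 cells with PBS, shLuc cells with LPS and shLuc cells with PBS, with 100 ng/ml LPS for 6 h according to the methods. The shDab2 cells stably carried an shRNA against Dab2 from a lentivirus and the shLuc cells one against luciferase, so both lines had been infected and kept as stable lines. On the arrays the knockdown was 1 line with 1 shRNA, shDab2-B, so an effect of Dab2 and a difference between 2 lines cannot be told apart. Whether the replicates came from separate cultures is given neither in the labels nor in the methods, and the p-values reflect only how far these 8 arrays scatter, which may be technical.

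The deposited intensities did not share a common scale between arrays, with 75th percentiles from 209 to 319, and 2 arrays a group bound the precision. Replicate arrays correlated across probes, on the log2 scale, with r from 0.9949 to 0.9963. Dab2 had 1 dim probe, at a normalized intensity of 39.1 and 34.8 in shDab2 cells and 52.2 and 72.4 in shLuc cells with LPS. With PBS it stood at 59.1 and 76.0 in shDab2 cells and 91.1 and 88.1 in shLuc cells. Neither difference passed the test (adjusted p = 0.058 with LPS and 0.26 with PBS, limma), so this probe does not settle the size of the knockdown. For the protein, the paper reports by Western blot that Dab2 was reduced in shDab2-B against shLuc cells. Of 10 macrophage markers, 9 were measured, with a summed intensity of 65213 to 71927 per array in shDab2 cells with LPS, 57925 to 58399 with PBS, 52206 to 85744 in shLuc cells with LPS and 62747 to 64587 with PBS. The width in shLuc cells with LPS came with Cd14, at 51011 and 19250.2 on those arrays. Adgre1, the F4/80 antigen, was 4.51-fold higher in shDab2 than in shLuc cells with LPS and 2.95-fold higher with PBS. With LPS against PBS, 2 of the 9 markers were lower and 3 higher in each line (limma). Csf1r was lower in both lines, Cd68 in shDab2 and Fcgr1 in shLuc cells, and Adgre1, Itgam and Cybb were higher in both lines. All 5 fibroblast and all 4 epithelial markers lay under 50 on all arrays. Of 5 lymphocyte markers 4 were measured and 2 lay under 50 on all arrays, with sums of 141 to 232 in shDab2 cells with LPS, 119 to 126 with PBS, 139 to 156 in shLuc cells with LPS and 124 to 131 with PBS. Cd3e read 51.9 to 103, and Cd79a was higher with LPS in shDab2 cells, at 102 and 71.6 against 39.8 and 46.6 with PBS (adjusted p = 0.0082). The part of these markers in the results was not tested. In RNA of a whole culture, fewer cycling cells and less RNA of a gene per cell cannot be told apart.

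The promoters of 17 members carried short sequences of the type that E2F proteins bind. RefSeq windows of GRCm38.p6, from 250 bases before to 50 bases after an annotated gene start, were found for 42 of the 52 members. They were searched on both strands for 4 E2F-type words, TTTCGCGC, TTTGGCGC, TTTCCCGC and TTTGCCGC, whose matches may overlap. A gene with several annotated starts has several windows, and a match in any of them was counted for that gene. At least 1 word was present in 17 of these 42 members, or 40.5%, against 2.60% of all 27025 genes with a window and 3.29% of the protein-coding ones. The match of Uhrf1 lies in the window of its second start. A window can also lie inside a gene's annotated span, as that of Orc1 does. The Orc1 window begins at base 108579204 of chromosome 4, and the span of the gene at 108575705. CCAAT, the box bound by NF-Y, was found in 64.3% of the members and 41.1% of all genes with a window. TTTGAA, the core of the cell cycle homology region of G2 and mitotic genes, was found in 14.3% of the members and 20.2% of all genes with a window. No window was found for Exo1, Pole, Prim2, Ccne2, Gmnn, Gins1, Gins2, Gins4, Rfc2 and Mcm4. A match is a run of letters and not a shown binding site.

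Shown here are 6 windows, 5′ to 3′ along the gene and from RefSeq, with E2F-type matches in capitals. Mcm5 and Mcm6, helicase subunits, have several matches that overlap, Gins3 and Dtl fell among the most with LPS and have 1, Orc1 has 1 and passed no LPS test, and Rrm2 has none and fell. The windows are chr8:75109259-75109558 on the plus strand for Mcm5, chr1:128359656-128359955 on the minus strand for Mcm6, chr8:95633309-95633608 on the plus strand for Gins3, chr1:191575495-191575794 on the minus strand for Dtl, chr4:108579204-108579503 on the plus strand for Orc1 and chr12:24708004-24708303 on the plus strand for Rrm2.
Mcm5: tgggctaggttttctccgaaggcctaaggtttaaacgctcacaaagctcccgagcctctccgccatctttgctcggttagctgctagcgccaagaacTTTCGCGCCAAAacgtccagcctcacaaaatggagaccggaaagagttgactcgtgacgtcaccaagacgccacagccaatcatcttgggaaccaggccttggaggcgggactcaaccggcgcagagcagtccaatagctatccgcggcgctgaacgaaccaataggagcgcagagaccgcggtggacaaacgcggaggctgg
Mcm6: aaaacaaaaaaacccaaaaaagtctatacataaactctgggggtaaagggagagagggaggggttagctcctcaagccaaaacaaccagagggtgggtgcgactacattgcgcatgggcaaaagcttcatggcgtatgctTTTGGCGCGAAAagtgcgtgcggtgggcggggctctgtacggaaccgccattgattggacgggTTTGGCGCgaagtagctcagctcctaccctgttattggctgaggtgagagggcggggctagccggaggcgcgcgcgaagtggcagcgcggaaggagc
Gins3: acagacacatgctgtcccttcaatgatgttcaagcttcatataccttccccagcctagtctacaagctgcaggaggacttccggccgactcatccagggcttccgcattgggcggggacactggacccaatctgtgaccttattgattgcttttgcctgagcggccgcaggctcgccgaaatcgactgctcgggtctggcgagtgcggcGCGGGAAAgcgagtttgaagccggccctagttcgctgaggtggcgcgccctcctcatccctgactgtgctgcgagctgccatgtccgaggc
Dtl: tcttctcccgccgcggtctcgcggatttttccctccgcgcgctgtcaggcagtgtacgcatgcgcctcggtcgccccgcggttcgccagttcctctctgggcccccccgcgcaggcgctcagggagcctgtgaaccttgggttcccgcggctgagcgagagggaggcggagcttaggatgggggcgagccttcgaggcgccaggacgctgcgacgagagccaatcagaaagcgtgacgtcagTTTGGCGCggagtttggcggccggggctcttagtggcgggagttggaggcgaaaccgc
Orc1: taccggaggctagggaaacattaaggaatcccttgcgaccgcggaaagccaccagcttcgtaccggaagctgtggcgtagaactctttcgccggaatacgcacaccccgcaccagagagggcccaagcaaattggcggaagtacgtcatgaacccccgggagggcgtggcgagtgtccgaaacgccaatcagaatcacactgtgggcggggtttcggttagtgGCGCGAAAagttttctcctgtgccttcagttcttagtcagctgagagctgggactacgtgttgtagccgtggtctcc
Rrm2: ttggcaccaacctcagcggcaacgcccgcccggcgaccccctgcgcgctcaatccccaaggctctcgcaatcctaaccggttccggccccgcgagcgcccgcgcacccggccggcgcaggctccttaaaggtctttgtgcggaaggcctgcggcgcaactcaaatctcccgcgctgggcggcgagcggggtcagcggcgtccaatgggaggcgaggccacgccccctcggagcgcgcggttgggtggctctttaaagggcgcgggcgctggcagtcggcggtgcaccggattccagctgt

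In the Mcm5 window and once in the Mcm6 window, matches on both strands overlap in 1 longer run of capitals. The single match of Gins3 and of Orc1 lies on the strand opposite to the gene, and that of Dtl on the strand of the gene, just before its start. The 17 members with a match had a median log2 fold change with LPS of -1.19 in shDab2 cells and -0.84 in shLuc cells, and 15 of them fell in each line. The 24 measured members with a window but no match had medians of -0.87 and -0.65, and 22 of them fell in each line. Of all genes, 18.0% fell in shDab2 and 15.7% in shLuc cells. Both sets of members thus fell, and a match was neither present in all that fell nor absent from all that did not.

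**Figure D1:**
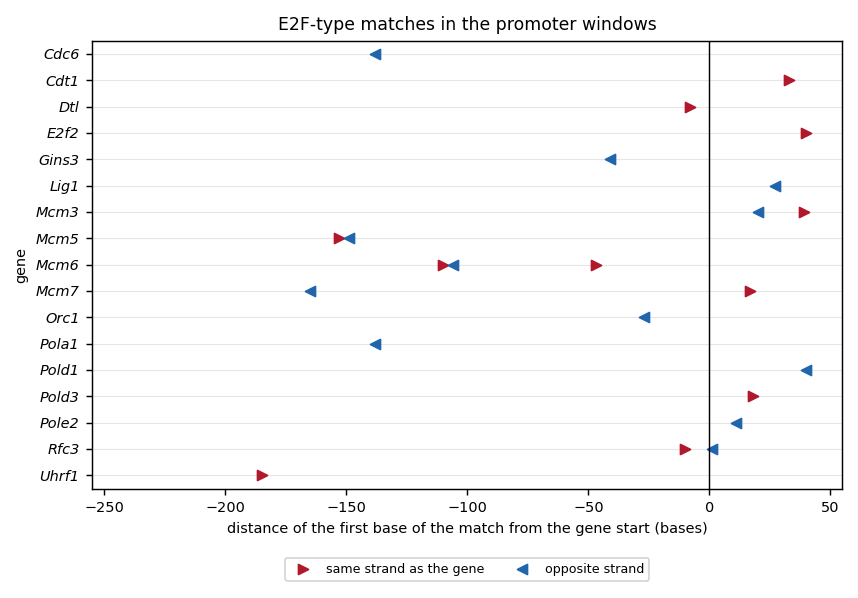
Position of each E2F-type match in the promoter windows of the 17 members that have one. The x axis gives the distance in bases from the gene start that the window belongs to, which is at 0, and the triangle's direction and colour give the strand of the match. Mcm6 has 3 matches, and Mcm3, Mcm5, Mcm7 and Rfc3 have 2 each.

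LPS lowered nearly the whole set in both lines. In shDab2 cells 47 of the 51 members fell with LPS, none rose and 4 were not called, where 18.0% of all genes fell, 13.4% rose and 33.4% of the genes with a mean intensity of 50 or more fell. In shLuc cells 47 of 51 fell as well, where 15.7% of all genes fell, 11.6% rose and 28.5% of the brighter genes fell, and these were the same 47 genes. The median log2 fold change of the members was -1.05 in shDab2 cells and -0.71 in shLuc cells, against 0.00 over all genes in both lines, which is 2.06-fold and 1.64-fold lower. By a log2 ratio past -1.5 without a test, 8 members passed in shDab2 and 1 in shLuc cells, where 0.734% and 0.288% of all genes did. This count uses quantile-normalized values with 50 added. The study's own lists at this cutoff hold further members, such as E2f2 and Chaf1b in shDab2 and Gins3 and Tk1 in shLuc cells. A call is an adjusted p under 0.05 in limma over all probes, and at an unadjusted p under 0.05 in limma 1 member, Pola2, was higher with LPS in each line and none in the other 3 comparisons. The log2 fold changes are of intensities with 50 added, which makes them smaller than the plain ratio where a gene is dim.

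The members' arrays separated cleanly. In shDab2 cells both LPS arrays lay below both PBS arrays for 49 members, above them for Pola2, and overlapped for Orc2, where 31.6% of all genes lay below. In shLuc cells both LPS arrays lay below both PBS arrays for 50 members and above them for Pola2, where 29.6% of all genes lay below. Summed over the 51 members, normalized intensity was 35096 and 34732 in shDab2 cells with LPS, against 77329 and 77671 with PBS. The sums were 49745 and 51143 in shLuc cells with LPS, against 88194 and 90974 with PBS. On this scale the 4 groups did not overlap in the summed level, and the shDab2 arrays with LPS were lowest. As deposited, without normalization, the sums were 33236 and 32640.0 in shDab2 cells with LPS against 91588 and 90615 with PBS, and 43078 and 44440.0 in shLuc cells with LPS against 85087 and 89195 with PBS. The LPS order was thus kept, while with PBS the shDab2 sums were the higher ones. Across the 51 members, which share the arrays of each line, the LPS effects in the 2 lines correlated with r = 0.90 and rho = 0.88, as a description.

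**Figure D2:**
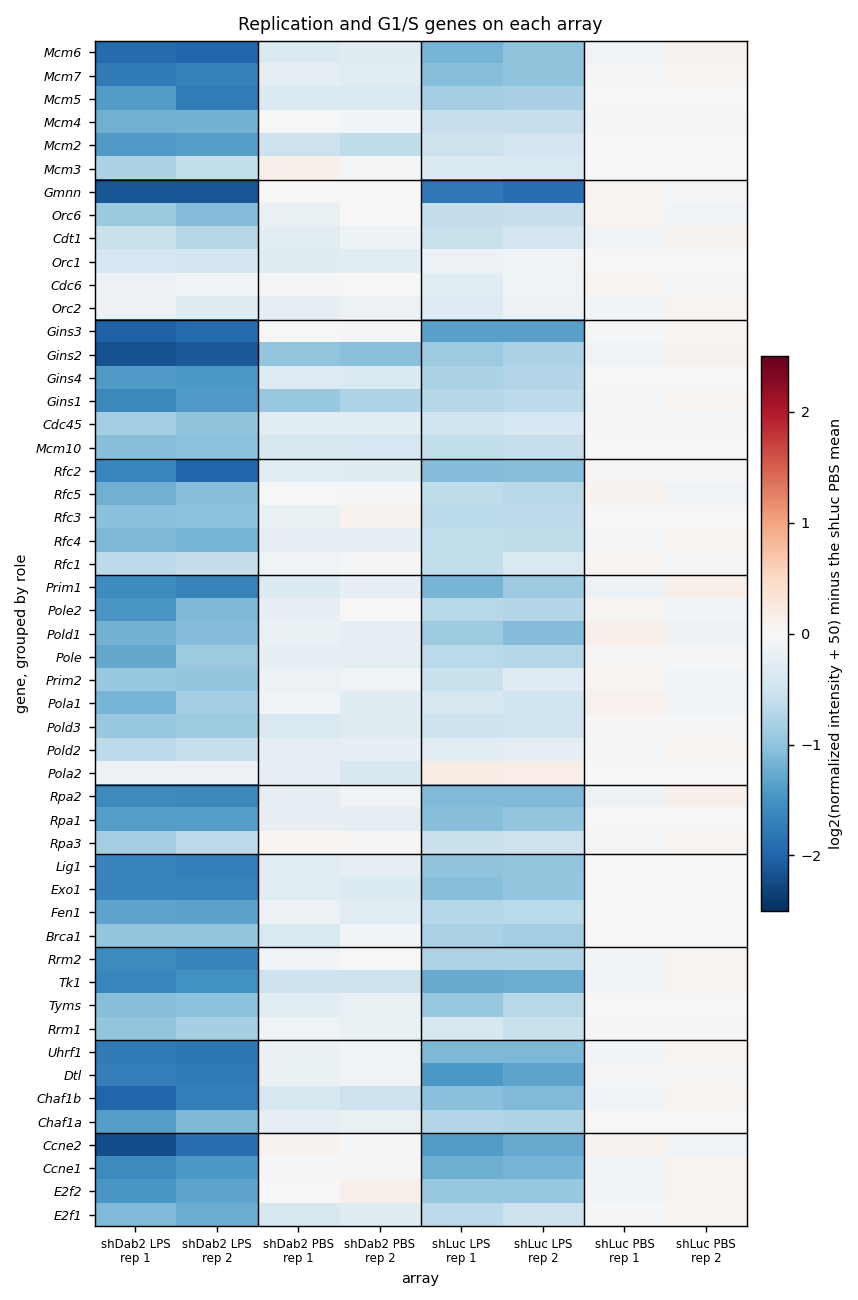
Colour gives log2(normalized intensity + 50) of each member on each of the 8 arrays, minus the mean of the 2 shLuc PBS arrays, with genes grouped by role and lines between roles. Both shDab2 LPS arrays are the darkest blue for most genes, and Pola2, Orc1, Orc2 and Cdc6 stay pale in all columns.

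Among the factors that recognise origins and load the helicase, 3 of 6 fell with LPS in each line. Gmnn, which encodes geminin, had the largest fall of all members in both lines on the log2 scale with 50 added. It read 491 and 491 in shDab2 cells with LPS against 2347 and 2301 with PBS, and 637 and 580.2 in shLuc cells with LPS against 2405 and 2236 with PBS. The plain ratios were 4.73-fold and 3.82-fold, under the 5.87-fold of Ccne2 in shDab2 cells, with log2 fold changes of -2.13 ± 0.06 (SE, adjusted p = 5.1e-10) in shDab2 and -1.85 ± 0.06 (adjusted p = 3.2e-09) in shLuc cells. The arrays of both treatments were far apart in each line, while the 2 lines had nearly equal PBS levels. Cdt1, which brings the helicase to the origin and is the protein that geminin binds, fell less, with log2 fold changes of -0.43 in shDab2 and -0.52 in shLuc cells. Orc6, a subunit of the origin recognition complex, fell by 0.91 and 0.59 on the log2 scale.

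The other members of this group passed neither LPS test. Orc1, the largest origin recognition subunit and a carrier of an E2F-type match, read 80.5 and 77.1 in shDab2 cells with LPS against 91.4 and 93.2 with PBS. In shLuc cells it read 108 and 113 with LPS against 122 and 126 with PBS, so the arrays were apart but close (log2 fold changes of -0.14 and -0.12, adjusted p = 0.29 and 0.42). Orc2, another subunit, read 554 and 492 with LPS against 520.4 and 556 with PBS in shDab2 cells, which overlapped, and 487 and 556 against 593 and 653 in shLuc cells. Its log2 fold changes were -0.04 (adjusted p = 0.83) and -0.24 (adjusted p = 0.063), while its dimmer second probe fell in both lines, by 0.34 and 0.53. Cdc6, the ATPase that loads the helicase with the complex, was at background on every array, from -2.0 to 10.5, so its probe gives no measure of it.

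All 6 subunits of the MCM2-7 helicase fell with LPS in both lines. Their median log2 fold change was -1.20 in shDab2 and -0.71 in shLuc cells. Mcm6 read 827 and 799 in shDab2 cells with LPS against 2542 and 2646 with PBS, and 1441 and 1609 in shLuc cells with LPS against 3099.9 and 3489.9 with PBS. No arrays overlapped, and it fell by 1.61 ± 0.07 and 1.09 ± 0.07 on the log2 scale (adjusted p = 1.6e-08 and 8.2e-07). Mcm7 followed, with falls of 1.47 and 1.04. Mcm3 fell the least of the 6, by 0.74 in shDab2 and 0.36 in shLuc cells, so the subunits of 1 ring did not fall alike on their probes.

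The factors that activate the loaded helicase all fell as well, 6 of 6 in each line. Gins3, 1 of the 4 GINS subunits, read 302 and 326 in shDab2 cells with LPS against 1357 and 1337 with PBS, and 504 and 503 in shLuc cells with LPS against 1328 and 1426 with PBS. These groups were far apart, with log2 fold changes of -1.94 ± 0.06 (adjusted p = 1.0e-09) and -1.37 ± 0.06 (adjusted p = 3.9e-08). A second, dimmer Gins3 probe fell by 1.82 and 1.47. Gins2 and Gins4 fell by 1.12 and 1.09 in shDab2 cells and by 0.85 and 0.76 in shLuc cells, and Gins1 by 0.66 and 0.69. Mcm10 and Cdc45, which join GINS at the starting fork, fell by between 0.47 and 0.65 in both lines.

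At the fork, all 5 clamp loader subunits, all 3 subunits of the single-strand binding protein RPA and 8 of 9 polymerase and primase subunits fell with LPS in each line. Rfc2, a small subunit of the clamp loader, read 1302 and 1016 in shDab2 cells with LPS against 3416 and 3353 with PBS. In shLuc cells it read 1941 and 1971 with LPS against 4257 and 4076 with PBS. Neither line had overlapping arrays, and the log2 fold changes were -1.52 ± 0.09 (adjusted p = 1.9e-07) and -1.07 ± 0.09 (adjusted p = 5.5e-06). Rpa2, the middle RPA subunit, read 1466 and 1433 in shDab2 cells with LPS against 3857 and 4214 with PBS, and 2052 and 2074 in shLuc cells with LPS against 4121 and 4890.1 with PBS. It fell by 1.44 ± 0.08 and 1.10 ± 0.08 (adjusted p = 7.7e-08 and 1.3e-06), with no overlap. Prim1, the catalytic primase subunit, fell by 1.36 and 1.04 on the log2 scale.

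Pola2 was the exception among the polymerase genes. It encodes the accessory B subunit of DNA polymerase alpha, and read 1319 and 1332 in shDab2 cells with LPS against 1278 and 1097 with PBS. In shLuc cells it read 1672 and 1665 with LPS against 1484 and 1462 with PBS. Both LPS arrays were the higher ones in each line, but the log2 fold changes of 0.16 ± 0.07 and 0.17 ± 0.07 did not pass the test (adjusted p = 0.13 and 0.10), and they passed it as rises when each array was scaled by its 75th percentile. Pola1, the catalytic subunit of the same enzyme, fell by 0.81 in shDab2 and 0.46 in shLuc cells, and Prim1 and Prim2, its primase subunits, fell too.

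The genes that finish the lagging strand and repair it fell in both lines, 4 of 4. Lig1, the ligase that joins Okazaki fragments, fell by 1.42 in shDab2 and 1.00 in shLuc cells. Exo1, an exonuclease of mismatch repair, fell by 1.37 and 1.02, and Fen1, the flap nuclease, by 1.12 and 0.70. Brca1, a recombination factor, passed the test in both lines, but its probe read 1.6 and 1.3 in shDab2 cells with LPS against 27.4 and 46.6 with PBS, under 50 on all 4, so no ratio is given.

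The 4 enzymes of deoxynucleotide supply also fell in both lines. Their order by size of fall differed between lines, as it also did for genes of other roles, such as Uhrf1 and Dtl. Rrm2, the small subunit of ribonucleotide reductase, read 929.6 and 893 in shDab2 cells with LPS against 2717 and 2924 with PBS. In shLuc cells it read 1684 and 1684 with LPS against 2771 and 3058 with PBS. Its arrays did not overlap in either line, and the ratios were 3.09-fold and 1.73-fold, with log2 fold changes of -1.58 ± 0.06 (adjusted p = 7.5e-09) and -0.77 ± 0.06 (adjusted p = 4.5e-06). Tk1, the S-phase thymidine kinase, read 44.4 and 53.2 in shDab2 cells with LPS against 156 and 156 with PBS, and 73.2 and 73.8 in shLuc cells with LPS against 229 and 259 with PBS. It fell in both lines, with log2 fold changes of -1.06 ± 0.09 and -1.25 ± 0.09 (adjusted p = 3.7e-06 and 1.8e-06). Rrm1, the large reductase subunit, fell by 0.76 and 0.47. Tyms, thymidylate synthase, was dim with LPS and at least 1.30-fold lower in shDab2 and 1.71-fold lower in shLuc cells, taking 50 as the lowest level measured.

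The replication-linked chromatin and ubiquitin genes were among the most lowered, 4 of 4 in each line. Uhrf1, which guides the maintenance methyltransferase to new DNA, read 814 and 788 in shDab2 cells with LPS against 2576 and 2696 with PBS. In shLuc cells it read 1297 and 1305 with LPS against 2771 and 3014 with PBS, and it fell by 1.66 ± 0.06 and 1.12 ± 0.06 with no overlap (adjusted p = 2.6e-09 and 1.2e-07). Dtl, the substrate receptor of the ligase that destroys Cdt1 in S phase, read 269 and 255 in shDab2 cells with LPS against 878 and 927 with PBS, and 338 and 369 in shLuc cells with LPS against 971 and 1016 with PBS. Its groups were apart as well, with log2 fold changes of -1.61 ± 0.07 and -1.37 ± 0.07 (adjusted p = 8.7e-09 and 6.3e-08). Chaf1b and Chaf1a, subunits of the histone chaperone CAF-1, fell by 1.38 and 1.05 in shDab2 cells and by 1.07 and 0.75 in shLuc cells.

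Both cyclin E genes and both E2F activators on the list fell in each line. Ccne2 read 85.0 and 120.1 in shDab2 cells with LPS against 617 and 569 with PBS, and 191 and 212 in shLuc cells with LPS against 623 and 540.4 with PBS. These were 5.87-fold and 2.88-fold lower, with log2 fold changes of -2.08 ± 0.11 (adjusted p = 6.7e-08) and -1.33 ± 0.11 (adjusted p = 4.7e-06) and no overlap. Its dimmer second probe fell by 0.70 in shDab2 cells but passed no test in shLuc cells (log2 fold change -0.24, adjusted p = 0.14), so the 2 probes disagreed on the size. Ccne1 read 171 and 196 in shDab2 cells with LPS against 591 and 604 with PBS, and 236 and 245 in shLuc cells with LPS against 583 and 646 with PBS. It fell by 1.47 ± 0.08 and 1.19 ± 0.08, again without overlap (adjusted p = 5.5e-08 and 6.0e-07). E2f2 lay under 50 on both shDab2 arrays with LPS and was at least 3.93-fold lower there, and 2.57-fold lower in shLuc cells, while E2f1 fell by 0.83 and 0.58 on the log2 scale.

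**Figure D3:**
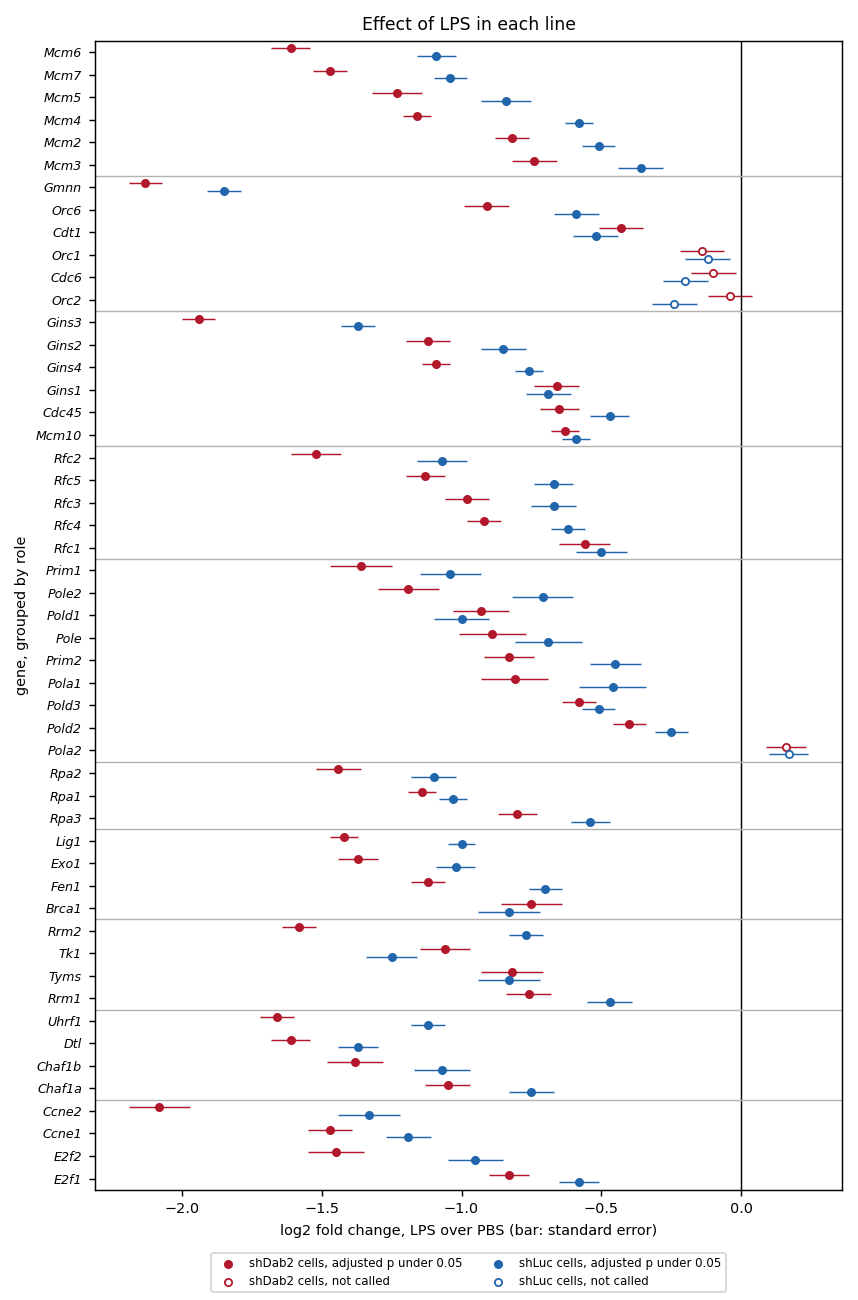
Log2 fold change with LPS over PBS of each member in shDab2 cells (red) and shLuc cells (blue), with standard errors as bars and genes grouped by role. Filled points passed the test and open points did not. Gmnn at -2.13 and -1.85 lies farthest left, and Pola2 at 0.16 and 0.17 is the member to the right of 0 in both lines.

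With LPS, most members were lower in the knockdown line than in the control line. In shDab2 cells 44 of the 51 members were lower than in shLuc cells, none was higher and 7 were not called, where 11.6% of all genes were lower, 9.07% higher and 21.9% of the brighter genes lower. The median was -0.47, or 1.38-fold lower, and both shDab2 arrays lay below both shLuc arrays for 47 members, where 28.2% of all genes did. All 6 MCM subunits and all 6 activation factors were among the 44. The uncalled ones were Cdc6, Cdt1, Orc2, Rfc1, Pold1, Brca1 and Tyms. Of the 44 calls, 33 held in each of 17 alternative limma fits, while a plain t-test called 34 members lower at an unadjusted p under 0.05 and 0 after Benjamini-Hochberg adjustment.

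Gins2 differed the most between the lines. With LPS it read 77.1 and 82.9 in shDab2 cells, against 253 and 281 in shLuc cells. With PBS it read 237 and 226 in shDab2 cells, against 491 and 555 in shLuc cells. The 2 lines were apart in both treatments, 3.34-fold with LPS (log2 fold change -1.29 ± 0.08, adjusted p = 2.0e-06) and 2.25-fold with PBS (-1.02 ± 0.08, adjusted p = 2.7e-05). Mcm2 read 283 and 292 in shDab2 cells and 569 and 587 in shLuc cells with LPS, which was 2.01-fold lower (-0.90 ± 0.06, adjusted p = 3.3e-06). Mcm6 and Rrm2, whose arrays are given above, were lower with LPS by 0.87 and 0.85 on the log2 scale (adjusted p = 1.1e-05 and 5.3e-06). Gins1 was lower by 0.82 ± 0.08.

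With PBS the difference between the lines was smaller and rested on fewer genes. In shDab2 cells 19 of the 51 members were lower than in shLuc cells, none was higher and 32 were not called, where 6.40% of all genes were lower, 5.65% higher and 12.2% of the brighter genes lower. The median was -0.21, or 1.16-fold lower, but without normalization between arrays it was 0.04. In that fit 3 members were lower and 10 higher, where 390 of all 26423 probes were lower and 6411 higher. On that scale all probes had a median of 0.11 and the probes with a mean intensity of 50 or more one of 0.26, so the members still lay 0.22 below the brighter probes. Both shDab2 arrays lay below both shLuc arrays for 34 members, where 26.5% of all genes did. The 19 calls were a subset of the 44 with LPS. Without the second shLuc PBS array 6 members were called, and 11 and 10 without the first and the second shDab2 PBS array.

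Only Gins1, Gins2 and Mcm2 held their calls with PBS in all 17 alternative limma fits. Gins1 read 436 and 498 in shDab2 cells with PBS, against 854 and 911 in shLuc cells, and with LPS 254 and 301 in shDab2 cells, against 517 and 540.4 in shLuc cells. The shDab2 level with PBS was thus 1.89-fold lower, near the shLuc level with LPS (log2 fold change -0.85 ± 0.08, adjusted p = 1.0e-04), and a second Gins1 probe gave -0.81. Mcm2 read 566 and 525 in shDab2 cells with PBS, against 849 and 834 in shLuc cells, 1.54-fold lower with no overlap (-0.58 ± 0.06, adjusted p = 1.6e-04). Tk1 was lower by 0.51 ± 0.09 (adjusted p = 0.0047), a call lost without normalization and without the second shLuc PBS array.

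Within 1 complex the subunits did not move together between the lines. With PBS, Gins2 and Gins1 were lower by 1.02 and 0.85 and Gins4 by 0.33, while Gins3 stood at -0.03 on that scale (adjusted p = 0.87). In the MCM ring Mcm2, Mcm5, Mcm6 and Mcm7 were lower, and Mcm3 and Mcm4 had log2 fold changes of 0.04 and -0.04 (adjusted p = 0.86 and 0.80). The 3 cyclin and E2F genes other than E2f1 had values from -0.04 to 0.06 with PBS, and E2f1 was lower by 0.35. Without normalization between arrays the PBS calls of Gins4, Mcm5, Mcm6, Mcm7 and E2f1 were lost. On that scale Gins3, Mcm3, Mcm4, Ccne1, Ccne2 and E2f2 were called higher with PBS, as were 6411 of all 26423 probes. Across the 51 members the effects of the knockdown with LPS and with PBS, which share no array, correlated with r = 0.53 and rho = 0.38 as a description.

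**Figure D4:**
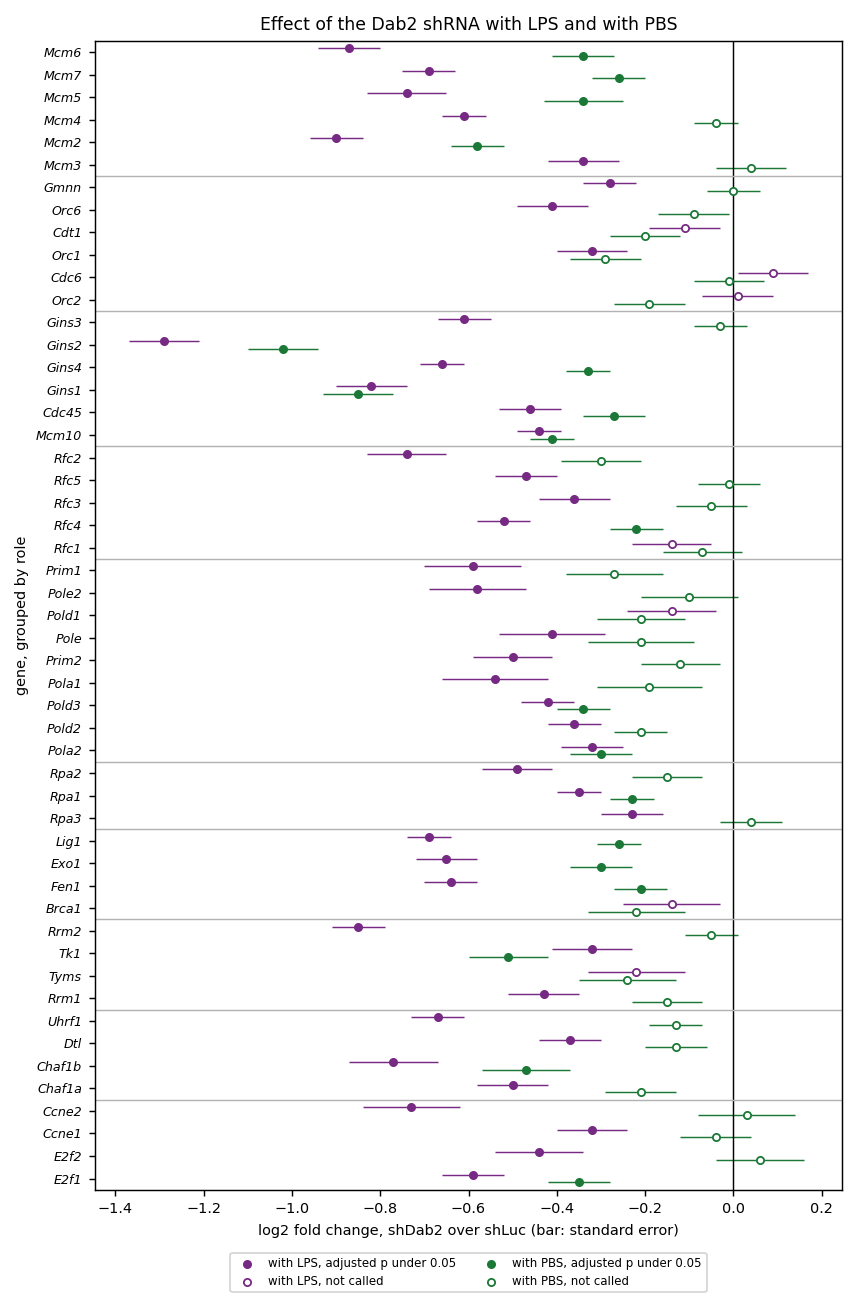
Log2 fold change of shDab2 over shLuc cells for each member with LPS (purple) and with PBS (green), with standard errors as bars and genes grouped by role. Filled points passed the test. Most members are lower with LPS, Gins2 farthest at -1.29. With PBS the median is -0.21, 19 members are called lower, and Gins2, Gins1 and Mcm2 lie farthest left. Without normalization between arrays 10 members would be higher with PBS, as would 6411 of all 26423 probes.

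**Figure D5:**
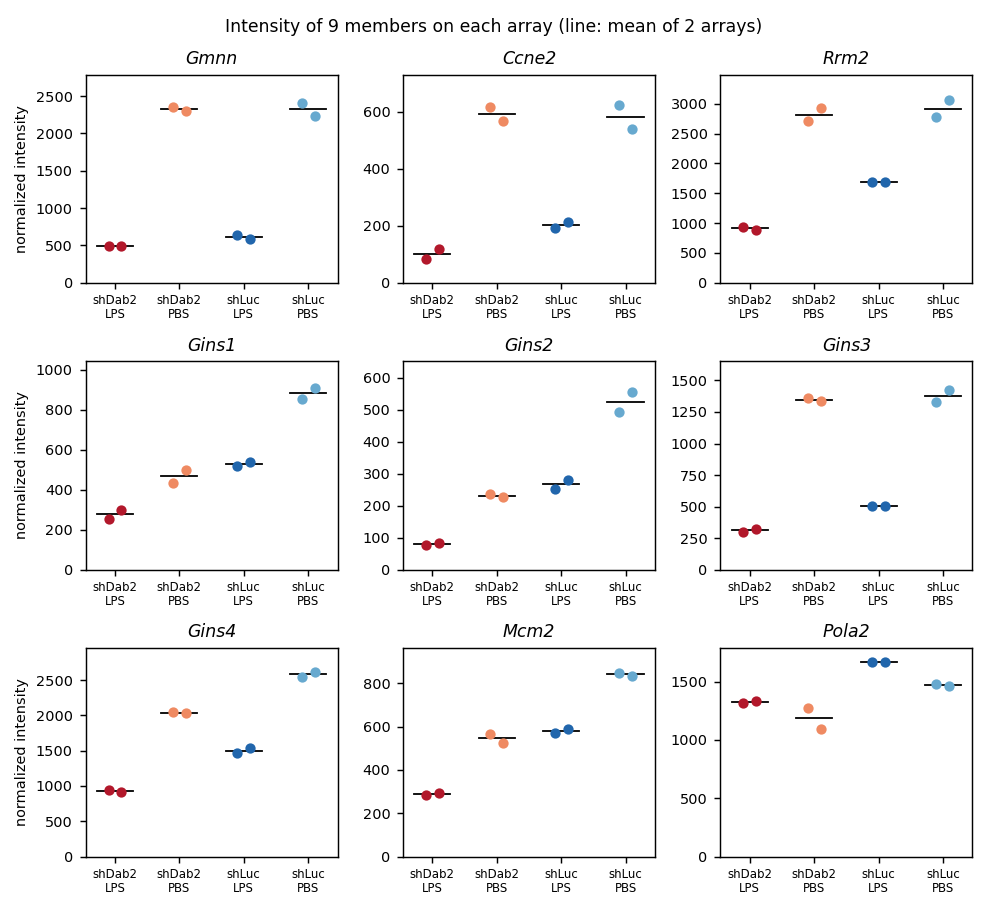
Normalized intensity of 9 members on each array, 2 points a group with a line at their mean, on axes that start at 0. Gins1, Gins2 and Mcm2 are lower in shDab2 than in shLuc cells with both treatments, Gmnn, Ccne2, Rrm2 and Gins3 have like PBS levels in both lines and fall with LPS, and Pola2 does not fall.

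The response to LPS itself differed between the lines for 11 members, and each fell more in shDab2 cells. This test of the difference called 11 of 51 members in that direction and none in the other, where 3.08% of all genes and 6.00% of the brighter genes were called in that direction and 2.72% of all genes in the other. The count was 7 without the first shDab2 PBS or the second shLuc LPS array and 32 without normalization between arrays. Without that normalization 1968 of all 26423 probes were lower and 447 higher, and the brighter probes had a median of -0.16. The members' median minus that of the brighter probes was -0.30 without normalization and -0.28 with it. With normalization the median difference of the members was -0.30, and 43 of the 51 members had the larger fall in shDab2 cells. Rrm2 differed most, by -0.81 ± 0.09 (adjusted p = 4.4e-04), since its PBS levels were close and its shDab2 arrays with LPS lay far below the shLuc ones. Ccne2 followed at -0.76 ± 0.16 (adjusted p = 0.018), Gins3 at -0.58 ± 0.09 (adjusted p = 0.0033), Uhrf1 at -0.54 ± 0.08 (adjusted p = 0.0037) and Mcm6 at -0.53 ± 0.10 (adjusted p = 0.012). The dimmer second probes of Ccne2 and Gins3 did not pass this test, at -0.46 (adjusted p = 0.12) and -0.36 (adjusted p = 0.20).

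Mcm4, an MCM subunit, had like PBS levels in the 2 lines. It read 1528 and 1545 in shDab2 cells with LPS against 3581 and 3408 with PBS, and 2371 and 2387 in shLuc cells with LPS against 3525 and 3643 with PBS. The PBS arrays of the lines overlapped and the LPS arrays did not, and the difference in response was -0.58 ± 0.07 (adjusted p = 0.0012). Rfc5, a clamp loader subunit, read 458 and 506 in shDab2 cells with LPS against 1130.5 and 1088 with PBS, and 702 and 669 in shLuc cells with LPS against 1194 and 1051 with PBS. It differed by -0.46 ± 0.10 (adjusted p = 0.031), with PBS arrays that overlapped between lines. Lig1 read 1666 and 1587 in shDab2 cells with LPS against 4357 and 4529 with PBS, and 2639.6 and 2662 in shLuc cells with LPS against 5341 and 5343 with PBS. Its lines were apart in both treatments, and the difference in response was -0.42 ± 0.07 (adjusted p = 0.0076). Mcm7, Fen1 and Gins4 made up the rest of the 11. Rrm2, Mcm4, Gins3, Uhrf1 and Lig1 were called in all 17 alternative limma fits.

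For some members the difference in response was close to 0. Gins1 had a difference in response of 0.03 ± 0.12 (adjusted p = 0.95), Mcm10 of -0.03 ± 0.07 (adjusted p = 0.90) and Cdt1 of 0.09 ± 0.11 (adjusted p = 0.77). Gmnn had a larger one, of -0.28 ± 0.09 (adjusted p = 0.11). These values did not pass the test, which does not show that the responses were equal.

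Most of the other genes of replication and G1/S also fell with LPS. Of 71 further genes listed, 66 were measured here. With LPS 46 of the 66 fell and 5 rose in shDab2 cells (median -0.64), where 18.0% of all genes fell and 13.4% rose, and 41 fell and 5 rose in shLuc cells (median -0.48), where 15.7% and 11.6% did. In shDab2 against shLuc cells 32 were lower and 5 higher with LPS, where 11.6% of all genes were lower and 9.07% higher. With PBS 13 were lower and 5 higher, where 6.40% and 5.65% of all genes were. Wdhd1, a fork protein that ties the helicase to polymerase alpha, fell by 2.14 and 1.31. E2f8, a repressor of the E2F family, fell by 1.95 and 1.57, Ccna2, the S-phase cyclin, by 1.89 and 1.36, and Dnmt1, the maintenance methyltransferase, by 1.35 and 1.28.

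Asf1a, Myc, Cdk6 and Cdkn1a rose with LPS in both lines, as Ccnd2 did in shDab2 and Rrm2b in shLuc cells. Asf1a, a histone chaperone, read 1904 and 1738 in shDab2 cells with LPS against 125 and 126 with PBS, and 1143 and 1136 in shLuc cells with LPS against 132 and 135 with PBS. The groups were far apart, with log2 fold changes of 3.42 ± 0.06 and 2.70 ± 0.06 (adjusted p = 1.7e-11 and 2.2e-10), while its paralog Asf1b fell by 1.35 and 0.83. Myc, a growth regulator, was under 50 on all PBS arrays and read 1115 and 1145 in shDab2 and 502 and 527 in shLuc cells with LPS, so it rose at least 22.6-fold in shDab2 cells. Cdkn1a, which encodes the kinase inhibitor p21, read 15468 and 14782 in shDab2 cells with LPS against 8117 and 8326 with PBS. In shLuc cells Cdkn1a read 10128 and 10271 with LPS against 5185 and 5138 with PBS. It rose in both lines, by log2 fold changes of 0.88 ± 0.05 and 0.98 ± 0.05, and was higher in shDab2 cells in both treatments (0.57 with LPS, adjusted p = 3.2e-05, and 0.67 with PBS, adjusted p = 2.8e-05). Of the 10 genes listed as brakes on G1/S, 2 lay under 50 on all arrays. Cdkn1a was the only one of the 10 called higher with LPS, where 13.4% of all genes rose in shDab2 and 11.6% in shLuc cells. Lower were 5 in shDab2 and 4 in shLuc cells, where 18.0% and 15.7% of all genes were. Among these brakes, Rb1 fell by 1.26 and 1.00 and Rbl1 by 1.04 and 0.61.

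The D-type cyclins Ccnd1 and Ccnd3, which act in G1, are given with their values. Ccnd1 fell by 0.69 ± 0.06 in shDab2 cells, reading 8716 and 8949 with LPS against 14593 and 14033 with PBS. In shLuc cells it read 15364 and 14498 with LPS against 15061 and 14949 with PBS, which overlapped (log2 fold change -0.01, adjusted p = 0.95). The difference in response was -0.69 ± 0.08 (adjusted p = 7.5e-04). Ccnd3 fell in both lines, by 0.44 and 0.53, and was higher in shDab2 cells, by 0.52 with LPS and 0.42 with PBS.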

How the data were processed

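RNA of RAW264.7 cells was measured on 8 one-colour (Cy5) arrays, 2 for each of 4 groups taken from the sample labels. The deposited values were linear intensities per array for 26423 probes, in whole numbers. Their background had been subtracted by the authors, and the normalization and image software are not given in the sources used here. A table of group means over the same arrays was not used. Probes carry the platform's annotation: 21876 had 1 gene symbol and 4547 had none, and 2424 genes had several probes.

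Intensities were quantile-normalized, 50 was added and the log2 was taken. In R 4.3.3, limma 3.58.1 fitted a mean per group over all 8 arrays. The variance followed a trend with intensity (eBayes), with residual degrees of freedom of 4 and prior ones of 6.7. P-values were two-sided and adjusted over all probes by the Benjamini-Hochberg method, and the script was tested on simulated data. A gene was read from its brightest probe. If a group's 2 arrays were both under 50, the ratio was taken against 50 and given as a bound. Without counts, no interval of reads applies.

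Members and lists were chosen with earlier results of these data known. Values in every array were given for the members with the 8 largest falls and smallest changes under LPS in each line, the 4 largest called differences under each knockdown comparison, up to 8 members called for the difference in response, and members called in neither LPS comparison. Other genes named came from written lists of the pathway, and the choice among them was made after their values were seen. Alternatives changed the normalization, the added value, the filter on dim probes, the variance model, the probe rule and the arrays included. A log2 ratio past 1.5 without a test and a plain t-test on the same values were also run. Promoter windows came from RefSeq.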

Additional observations from a re-analysis of the deposited data

Results flagged for a closer look

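The LPS response of 11 members differed between the 2 lines by the test of the difference itself (limma, shDab2 minus shLuc, log2). The values were -0.81 for Rrm2 (adjusted p = 4.4e-04), -0.76 for Ccne2 (0.018), -0.58 for Mcm4 (0.0012) and -0.58 for Gins3 (0.0033). They were -0.54 for Uhrf1 (adjusted p = 0.0037), -0.53 for Mcm6 (0.012), -0.46 for Rfc5 (0.031) and -0.42 for Lig1 (0.0076). The remaining values were -0.42 for Mcm7 (adjusted p = 0.015), -0.42 for Fen1 (0.013) and -0.33 for Gins4 (0.028). The second probes of Ccne2 (-0.46, adjusted p = 0.12) and Gins3 (-0.36, adjusted p = 0.20) did not pass. All 11 fell more with LPS in shDab2 cells, where 3.08% of all genes were called in that direction. The count was 7 without the first shDab2 PBS or the second shLuc LPS array and 32 without normalization between arrays. Without that normalization 1968 of all 26423 probes were called in that direction. Groups of 2 arrays are too small to look for single arrays that stand apart.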

How the results depend on the processing

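Every alternative kept a negative median in the 5 comparisons except the knockdown with PBS without normalization between arrays, where it was 0.04. Medians over the members, in the order LPS in shDab2, LPS in shLuc, knockdown with LPS and difference in response, were -1.35, -0.90, -0.38 and -0.46 without normalization, -1.15, -0.78, -0.54 and -0.33 with an added value of 16, and -0.88, -0.64, -0.42 and -0.26 with one of 100. Scaled by the 75th percentile, the LPS medians were -0.91 in shDab2 and -0.66 in shLuc cells, with 1 member higher in each (Pola2). In shDab2 cells the LPS median was -1.08 without dim probes and -0.98 with a gene's probes averaged. Without normalization 3 members were lower and 10 higher in the knockdown with PBS, where 390 and 6411 of all 26423 probes were. For the difference 32 members were lower without normalization, where 1968 of all probes were. Over all probes LPS in shDab2 cells gave 3992 lower and 3126 higher calls, 3284 and 3831 after scaling by the 75th percentile, and 7401 and 1510 without normalization.

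Leaving out 1 array at a time, with the lone array of a group assumed to vary like the others, gave LPS medians from -1.07 to -0.98 in shDab2 and from -0.75 to -0.71 in shLuc cells, with 0 to 1 member higher in each. The knockdown with LPS gave medians from -0.50 to -0.42 and 37 to 43 members lower. The knockdown with PBS gave 6 to 20 members lower, with 6 without the second shLuc PBS array. The difference gave 7 to 14 members lower and medians from -0.32 to -0.25, with 7 without the first shDab2 PBS or the second shLuc LPS array. For these calls fewer arrays leave fewer degrees of freedom, and no other cause was tested.

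A log2 ratio past 1.5 without a test, on normalized values with 50 added, left 8, 1, 0, 0 and 0 members lower in the 5 comparisons. The methods name a t-test in general but no test for the arrays. A plain t-test after Benjamini-Hochberg adjustment left 18 and 8 members lower with LPS in shDab2 and shLuc cells and 0 in both knockdown comparisons. At an unadjusted p under 0.05 it gave 46, 44, 34 and 21 lower in these 4 comparisons and 1 higher with LPS in shLuc cells. Of the values of single named genes under the alternatives, 685 kept their side of the threshold, 31 lost the call, 13 gained it and 0 changed direction. Among all 51 members, 3 that were called lower in the knockdown with PBS changed sign without normalization. Same-numbered arrays did not deviate together (r from -0.089 to 0.156 over 11282 probes). With a replicate block 47, 47, 44, 19 and 11 members were lower, with Fen1 lost and Pold2 gained in the knockdown with PBS. Probes under 50 limit what can be said of Cdc6, Brca1, Tyms and E2f2.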
